A study of Rattus norvegicus with 24 samples.

Results

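The genes described were 10 markers and signals of myofibroblasts and pericytes, namely Acta2 (Entrez 81633), Tagln (25123), Myh11 (24582), Cnn1 (65204), Des (64362), Pdgfra (25267), Pdgfrb (24629), Pdgfb (24628), Thy1 (24832) and Ccn2 (64032). They were chosen by name, and all 10 were found by symbol among the 17334 genes of the deposited tables and passed the filter on low counts. Their RNA was measured in kidneys (the left one) from 24 rats of the PKD/Mhm (Cy/+) line, all male, 6 in each of 4 groups. The line carries a missense change in Anks6 that gives cystic kidneys, and the animals were taken as heterozygous by palpation of the abdomen. All were 8 months old. Control rats (Ctrl) received no treatment. The CoCM group received medium in which ABCB5+ stromal cells from human skin had been cultured together with THP-1 macrophages stimulated with IFN-γ and LPS. The sources used here give different routes for this medium, intraperitoneal in one and intravenous in another. The other groups received 2000000 of the ABCB5+ cells per injection, either intraperitoneally (group ipABCB5) or intravenously (group ivABCB5). Treatment was monthly for 6 months.

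Pericytes wrap the capillaries of the kidney, smooth muscle cells surround its arterioles, and fibroblasts lie between its tubules. Endothelial and tubular cells release PDGF ligands, which bind the receptors Pdgfra and Pdgfrb on these cells and drive their growth and migration. In a scarring kidney such cells can take on a contractile, matrix-producing form, the myofibroblast, which is recognised by smooth muscle actin (Acta2). Many contractile genes are switched on by serum response factor with myocardin or its relatives, which binds a CArG box, whereas Ccn2 (connective tissue growth factor) is a textbook target of YAP with TEAD factors.

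Promoter sequence was available for 6 of the 10 genes, namely Acta2, Pdgfra, Pdgfb, Des, Cnn1 and Ccn2, from RefSeq on build GRCr8. Acta2 and Ccn2 are printed because they stand for these different kinds of regulation. Each line gives the 250 bases before the start of the gene, 5′ to 3′, both on the minus strand, Acta2 at chr1:241172504-241172753 and Ccn2 at chr1:22624615-22624864. Capitals mark CArG-like letters in Acta2 (CC, 6 bases of which at least 5 are A or T, then GG) and the TEAD motif GGAATG in Ccn2.
Acta2: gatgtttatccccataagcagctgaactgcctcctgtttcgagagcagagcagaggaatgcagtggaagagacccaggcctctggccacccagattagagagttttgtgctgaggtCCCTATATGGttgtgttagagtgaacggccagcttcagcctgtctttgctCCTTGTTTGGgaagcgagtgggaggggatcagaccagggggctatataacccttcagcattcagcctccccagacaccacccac
Ccn2: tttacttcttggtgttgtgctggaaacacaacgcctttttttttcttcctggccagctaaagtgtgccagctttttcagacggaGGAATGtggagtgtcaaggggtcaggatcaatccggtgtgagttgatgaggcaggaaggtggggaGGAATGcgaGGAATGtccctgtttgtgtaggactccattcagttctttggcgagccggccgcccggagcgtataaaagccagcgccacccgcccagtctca

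The Acta2 window held 2 CArG-like matches, at -134 to -125 and -84 to -75 from the start, and 1 GGAATG at -196 to -191. The Ccn2 window held 3 GGAATG matches, starting at -166, -101 and -92, and no CArG-like match. Pdgfb held 1 CArG-like match and Pdgfra 1 match to the AP-1 motif TGANTCA, and no match to any of these motifs was found in the Des and Cnn1 windows. Both strands were searched and no matches overlapped. Of 33469 promoter windows of this length, 8.08% held a CArG-like match and 0.693% held 2 or more. GGAATG was found in 12.1% and 3 or more times in 0.0807%. TGANTCA was found in 6.34%. These matches describe letters and not binding.

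The depth of the libraries was from 9304630 to 14125457 estimated counts. In a principal component analysis of log2 CPM (read counts scaled to a common library size, with TMM factors), the first component held 56.3% of the variance. On it 4 kidneys stood apart, namely CoCM animal 39, ipABCB5 animal 38 and ivABCB5 animals 36 and 37, with scores from 80.8 to 97.4 against −53.0 to 11.5 in the other 20. In these 4, the TPM (abundance scaled to transcript length and to a common library total) summed over 7 T cell markers was 13.5 to 30.7, against 116 to 294 in the other 20. Over 8 macrophage markers the sum was 75.4 to 192 TPM against 392 to 1075. It was 992 to 1191 against 7662 to 15254 over 8 injured tubule markers, and 3588 to 7316 against 768 to 3439 over 8 proximal tubule markers. Single genes weighed most in the tubule sums, with means over all kidneys of 7438 TPM for Spp1 (injured) and 1265 TPM for Slc34a1 (proximal). Gene by gene in CPM, all 4 lay below the other 20 for 6 of 8 injured tubule markers. All 4 lay above for 2 of 8 proximal tubule markers, Slc34a1 and Slc22a6. The proximal markers Slc5a2 and Slc5a12 lay inside the range of the other 20 in all 4. Endothelial markers overlapped, at 363 to 483 TPM against 311 to 676. Podocyte, proximal tubule, distal tubule and collecting duct markers were present in every library, as the kidney label requires, with only Pvalb of these lists at or under 3 counts throughout. Control animals had numbers from 1 to 24 and treated animals from 26 to 43, so an effect of numbering and an effect of treatment cannot be told apart in any comparison with Ctrl. Estimates against Ctrl for the 10 genes, and the medians of lists, are therefore also given without the 4 kidneys.

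Per transcript length, the actin-binding protein gene Tagln (transgelin) had the highest level of the 10, with a mean of 600.0 ± 291 TPM over all kidneys (SD, n = 24). Ccn2 followed at 265 ± 139 TPM and Acta2 at 199 ± 72.3 TPM. The middle of the order was Des at 66.5 ± 20.7, Pdgfb at 61.9 ± 23.4, Pdgfrb at 48.9 ± 18.7 and Thy1 at 33.5 ± 6.40 TPM. Myh11 at 23.8 ± 7.61, Pdgfra at 22.6 ± 9.46 and Cnn1 at 12.2 ± 6.50 TPM were lowest. Neighbours in this order differed by less than the larger SD of the pair, apart from Tagln over Ccn2, Acta2 over Des, Thy1 over Myh11 and Pdgfra over Cnn1. The markers of contraction thus covered the whole range, from Tagln to Cnn1.

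Most of these genes varied between kidneys more than a typical gene did. The coefficient of variation of CPM over all 24 was 56.9% for Cnn1, 51.1% for Ccn2 and 49.5% for Tagln, and between 31.6% and 39.1% for Pdgfra, Acta2, Pdgfrb, Myh11, Pdgfb and Des. Thy1 had 21.2%, close to the median of 21.3% over the 12778 genes tested. Expression in whole tissue cannot separate fewer cells of a type from less RNA per cell.

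**Figure D1:**
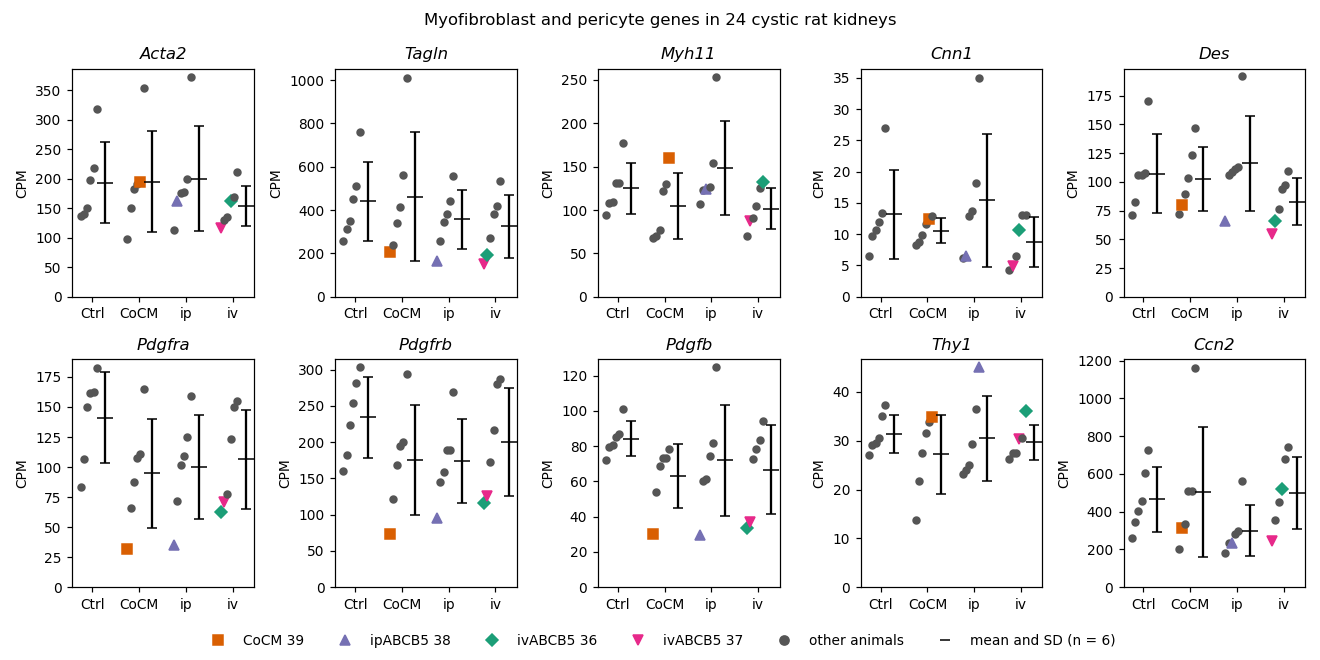
CPM (vertical axis, from 0) of each gene in the 24 kidneys by group (ip for ipABCB5, iv for ivABCB5), with 1 symbol per kidney ordered by value, coloured symbols for the 4 kidneys that stood apart, and bars for the mean and SD (n = 6). The groups overlap in every panel, and the coloured symbols lie at the bottom for Tagln and Pdgfb but not for Acta2, Myh11 or Cnn1.

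The question for the treatments was whether the cells or their medium changed these genes in the cystic kidney. None of the 10 genes passed an adjusted p-value of 0.05 in any comparison (edgeR's quasi-likelihood test, Benjamini-Hochberg over 12778 genes). In CoCM against Ctrl 0 of 10 were called, where 0.00783% of all genes tested were, and the adjusted p-values of the 10 were 0.482 to 0.986. In ipABCB5 against Ctrl 0 were called (all genes 0%, adjusted p of the 10 from 0.978 to 0.988), and in ivABCB5 against Ctrl 0 (all genes 0%, adjusted p 0.673 to 0.922). Between the routes 0 were called (all genes 0%), with an adjusted p of 0.9999 for each of the 10. The test over all 4 groups also called 0 (all genes 0%), with adjusted p-values from 0.817 to 0.893. DESeq2 called 0 of the 10 in each of these comparisons as well.

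At an unadjusted p-value under 0.05 there were 0 of 10 in CoCM against Ctrl (all genes 11.9%), 0 in ipABCB5 (1.77%) and 0 in ivABCB5 against Ctrl (5.78%). Between the routes there were 2, Myh11 and Cnn1 (all genes 2.14%), both higher in ipABCB5 (all genes higher 0.689%), and over the 4 groups 0 (4.71%). Without the 4 kidneys that stood apart there were 0, 0 and 0 against Ctrl (all genes 16.9%, 1.39% and 1.23%), 1 between the routes, Myh11 (1.13%), and 1 over the 4 groups, again Myh11 (6.23%). By the exact permutation test of mean CPM, p was under 0.05 for 1 of 10 in CoCM, Pdgfb (all genes 16.7%), for 0 in ipABCB5 (2.38%), for 0 in ivABCB5 (3.44%) and for 1 between the routes, Myh11 (1.77%). Ranges of CPM did not separate for any of the 10 in any comparison, against 1.38%, 0.047% and 0.11% of all genes in CoCM, ipABCB5 and ivABCB5 against Ctrl and 0.0626% between the routes. The median log2 fold change of the 10 against Ctrl was −0.23 in CoCM, −0.14 in ipABCB5 and −0.34 in ivABCB5, while the medians over all genes were 0.01, 0.00 and 0.01. Estimates lay below 0 for 7, 6 and 9 of the 10. These comparisons share the Ctrl kidneys. On the TPM scale 10, 7 and 9 were below 0, where Acta2, Tagln and Ccn2 changed sign in CoCM and Acta2 in ipABCB5. The medians over all genes on that scale were also below 0, at −0.10, −0.05 and −0.06. Without the 4 kidneys that stood apart the medians were −0.27, −0.10 and −0.17, with 7, 6 and 8 below 0. Between ipABCB5 and ivABCB5 the median was 0.13 with 7 of 10 above 0, and −0.01 with 4 above 0 without these kidneys.

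**Figure D2:**
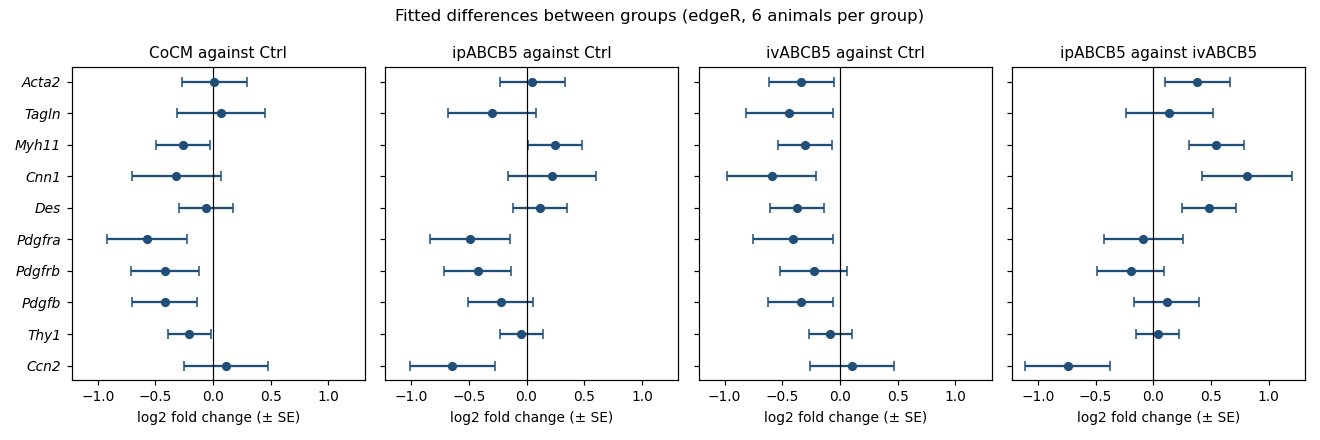
Fitted log2 fold change (horizontal axis) of each gene (vertical axis) in the 4 comparisons, with bars of 1 standard error from edgeR (6 kidneys per group). Pdgfra lies left of 0 in each comparison with Ctrl, at −0.57, −0.49 and −0.40, and Cnn1 and Myh11 lie right of 0 between ipABCB5 and ivABCB5, at 0.81 and 0.55.

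Among the contractile genes, Acta2 in Ctrl ran from 137 to 318 CPM with a median of 174. In CoCM it ran from 98.2 to 355 (median 187), in ipABCB5 from 113 to 373 (median 177) and in ivABCB5 from 116 to 211 CPM (median 149). The highest kidneys of Ctrl, CoCM and ipABCB5, animals 1, 40 and 41 in turn, lay above every kidney of the ivABCB5 group, and the ranges of all groups overlapped. The log2 fold change against Ctrl was 0.01 ± 0.28 (SE) in CoCM, 0.05 ± 0.28 in ipABCB5 and −0.33 ± 0.28 in ivABCB5, with adjusted p-values of 0.986, 0.988 and 0.693 (edgeR). On the TPM scale the CoCM and ipABCB5 estimates were below 0, at −0.14 and −0.04, where the medians over all genes were −0.10 and −0.05. In edgeR without animals 40 and 41 in turn, the CoCM and ipABCB5 estimates were −0.25 and −0.23. The estimates were 0.01, 0.11 and −0.27 without the 4 kidneys that stood apart. The ivABCB5 estimate remained below 0 whichever animal was left out.

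Tagln, which binds actin in smooth muscle, ran from 258 to 760.3 CPM in Ctrl (median 400.2) and from 205 to 1011 in CoCM (median 376). In ipABCB5 it was 166 to 556 (median 364) and in ivABCB5 151 to 535 CPM (median 325). The lowest kidneys of the treated groups were those that stood apart, and the highest of all was CoCM animal 40. Its log2 fold change against Ctrl was 0.07 ± 0.38 in CoCM, −0.30 ± 0.38 in ipABCB5 and −0.44 ± 0.38 in ivABCB5. These were 0.22, −0.15 and −0.13 without the 4 kidneys, nearer to 0 in ipABCB5 and ivABCB5. In CoCM it was −0.17 on the TPM scale and −0.32 without animal 40, so its sign was not stable.

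Myh11, the heavy chain of smooth muscle myosin and a marker of mature smooth muscle, ran from 94.0 to 178 CPM in Ctrl (median 119.7). In CoCM it ran from 67.5 to 159.8 (median 99.1), in ipABCB5 from 107 to 254 (median 126) and in ivABCB5 from 70.4 to 132 CPM (median 97.4). CoCM fell into 3 kidneys at 67.5 to 76.7 CPM (animals 26, 27 and 34), below all controls, and 3 at 121 to 159.8 CPM. Against Ctrl the log2 fold changes were −0.26 ± 0.23, 0.24 ± 0.23 and −0.30 ± 0.23 in CoCM, ipABCB5 and ivABCB5, and −0.43, 0.29 and −0.36 without the 4 kidneys.

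Cnn1 (calponin), a brake on myosin in differentiated smooth muscle, had the lowest counts of the 10, from 53 to 385 per library. It ran from 6.48 to 26.9 CPM in Ctrl (median 11.3), from 8.22 to 12.8 in CoCM (median 10.7), from 6.16 to 34.9 in ipABCB5 (median 13.3) and from 4.27 to 13.1 CPM in ivABCB5 (median 8.60). The spread of the Ctrl kidneys (SD 7.13 CPM) was wider than that of CoCM (1.96), and was 2.62 CPM without Ctrl animal 1. Its log2 fold change against Ctrl was −0.32 ± 0.39, 0.22 ± 0.38 and −0.59 ± 0.39 in CoCM, ipABCB5 and ivABCB5, and −0.38, 0.38 and −0.52 without the 4 kidneys. All 6 CoCM and all 6 ivABCB5 kidneys lay below the Ctrl mean (exact permutation p = 0.539 and 0.223), a mean of 13.2 CPM that was 10.5 CPM without animal 1. The log2 fold changes without Ctrl animal 1 were 0.02 in CoCM and −0.25 in ivABCB5, and the ipABCB5 value −0.20 without ipABCB5 animal 41.

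Des (desmin), the intermediate filament of muscle and mesangial cells, ran from 70.9 to 170.1 CPM in Ctrl (median 106), from 72.2 to 147 in CoCM (median 96.2), from 66.1 to 192 in ipABCB5 (median 109.6) and from 54.3 to 109 CPM in ivABCB5 (median 85.2). All ipABCB5 kidneys but animals 38 and 41 lay within 106 to 113 CPM. The log2 fold change against Ctrl was −0.06 ± 0.23 in CoCM, 0.12 ± 0.23 in ipABCB5 and −0.37 ± 0.24 in ivABCB5 (adjusted p = 0.673 for the last, edgeR). Leaving out the 4 kidneys gave −0.01, 0.24 and −0.19. The CoCM value was 0.12 without Ctrl animal 1, and the ipABCB5 value −0.09 without ipABCB5 animal 41.

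The routes of injection gave the only unadjusted edgeR p-values under 0.05 among the 10, for Myh11 and Cnn1. Myh11 was at 148 ± 53.9 CPM in ipABCB5 and 102 ± 23.6 CPM in ivABCB5 (SD, n = 6), and 6 of 6 ipABCB5 kidneys lay above the ivABCB5 mean. The log2 fold change was 0.55 ± 0.24 with an unadjusted p of 0.0296 and an adjusted p of 0.9999 (edgeR). A two-sided exact permutation test of the means, over all divisions of the 12 kidneys, gave p = 0.0433, unadjusted, where 1.77% of all genes were under 0.05. Without ipABCB5 animal 41 the log2 fold change was 0.33 and the exact p 0.0779. Leaving out each of the 12 animals in turn, the exact p was between 0.0216 and 0.115 and under 0.05 in 6 of 12. It was over 0.05 without ipABCB5 animals 31 or 41 or ivABCB5 animals 28, 33, 37 or 43, and 0.0873 without the 4 kidneys that stood apart.

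Cnn1 was at 15.4 ± 10.6 CPM in ipABCB5 and 8.77 ± 4.05 CPM in ivABCB5, with a log2 fold change of 0.81 ± 0.39 and an unadjusted p of 0.0479 (edgeR). The exact permutation p was 0.147, and without ipABCB5 animal 41 the log2 fold change was 0.40 (edgeR unadjusted p = 0.273). The other contractile genes had log2 fold changes of 0.49 ± 0.24 (Des), 0.38 ± 0.28 (Acta2) and 0.14 ± 0.38 (Tagln), ipABCB5 minus ivABCB5. Without animal 41 these were 0.29, 0.11 and −0.03, and without the 4 kidneys 0.43, 0.37 and −0.01. Animal 41 held the highest Acta2, Myh11, Cnn1 and Des of all 24. The exact permutation p for Des was 0.0736, unadjusted. With each of the 12 animals left out in turn it was 0.00866 (without ipABCB5 animal 38) to 0.171 and under 0.05 in 1 of 12.

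Of the PDGF genes, the ligand Pdgfb recruits pericytes to endothelium. In Ctrl it ran from 71.9 to 101 CPM (median 83.2) and in CoCM from 30.04 to 78.4 CPM (median 71.0). All 6 CoCM kidneys lay below the Ctrl mean, and 3 of them below the lowest control. The means were 62.9 ± 18.2 CPM in CoCM and 84.3 ± 9.80 in Ctrl (SD, n = 6), with a log2 fold change of −0.42 ± 0.28 and an adjusted p of 0.516 (edgeR). It was −0.29 without the 4 kidneys. The two-sided exact permutation p was 0.0130, unadjusted, and 16.7% of all genes in this comparison were under 0.05 by that test. It was 0.00433 to 0.0368 when each of the 12 animals was left out in turn, and 0.0195 without CoCM animal 39 (CoCM then 69.5 ± 9.35 CPM, n = 5).

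In ipABCB5 Pdgfb ran from 29.4 to 125 CPM (median 67.9) and in ivABCB5 from 33.4 to 94.4 CPM (median 75.4). The lowest kidneys in both groups were those that stood apart, and the highest of all was ipABCB5 animal 29. The log2 fold changes against Ctrl were −0.23 ± 0.28 and −0.34 ± 0.28, and −0.06 and −0.04 without the 4 kidneys. The exact permutation p-values were 0.403 and 0.169. They fell to 0.0216 without ipABCB5 animal 29 and to 0.0411 without ivABCB5 animal 33, the highest of its group. With each of the 12 animals left out in turn they reached 0.781 and 0.316, and each was under 0.05 in 1 of 12.

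The receptor Pdgfra marks interstitial fibroblasts. It ran from 83.3 to 182 CPM in Ctrl (median 156), from 31.7 to 165 in CoCM (median 97.8), from 34.9 to 159 in ipABCB5 (median 105) and from 62.3 to 155 CPM in ivABCB5 (median 101). Only 1 kidney in CoCM, 1 in ipABCB5 and 2 in ivABCB5 lay above the Ctrl mean. The log2 fold change was −0.57 ± 0.35 in CoCM, −0.49 ± 0.35 in ipABCB5 and −0.40 ± 0.34 in ivABCB5, with adjusted p-values of 0.482, 0.978 and 0.694 (edgeR). Without the 4 kidneys it was −0.40, −0.31 and −0.16. The exact permutation p-values were 0.102, 0.110 and 0.156. For CoCM it fell to 0.0303 without CoCM animal 40 and to 0.0455 without Ctrl animal 23, and for ipABCB5 to 0.0411 without ipABCB5 animal 29 and to 0.0498 without Ctrl animal 23. With each of the 12 animals left out in turn it reached 0.186 in CoCM and 0.216 in ipABCB5, and was under 0.05 in 2 of 12 in each. In ivABCB5 it was under 0.05 in 0 of 12.

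Pdgfrb, the receptor of pericytes and other mural cells, ran from 159.6 to 303 CPM in Ctrl (median 239) and from 72.7 to 294 in CoCM (median 182). In ipABCB5 it was 94.96 to 269 (median 174) and in ivABCB5 116 to 288 CPM (median 195). The order of the kidneys was close to that of Pdgfra. Its log2 fold changes against Ctrl were −0.42 ± 0.29, −0.42 ± 0.29 and −0.23 ± 0.29, and −0.26, −0.29 and 0.03 without the 4 kidneys, so the ivABCB5 estimate changed sign. The exact permutation p was 0.162 in CoCM (0.0390 without CoCM animal 40) and 0.102 in ipABCB5 (0.0368 without ipABCB5 animal 29, 0.0498 without Ctrl animal 23). With each of the 12 animals left out in turn it reached 0.312 and 0.201, and was under 0.05 in 1 and 2 of 12.

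Thy1 encodes a surface protein of fibroblasts and neurons, and it also stands in the list of mesangial and juxtaglomerular markers below. It ran from 27.1 to 37.3 CPM in Ctrl (median 29.98), from 13.8 to 34.9 in CoCM (median 29.5), from 23.1 to 45.2 in ipABCB5 (median 27.1) and from 26.2 to 36.1 CPM in ivABCB5 (median 28.9). The group means differed by less than the spread within CoCM and ipABCB5, with log2 fold changes of −0.21 ± 0.19, −0.05 ± 0.19 and −0.08 ± 0.19. They were −0.29, −0.19 and −0.17 without the 4 kidneys. The lowest kidney, CoCM animal 34, also had the lowest Acta2. In that library 5 adipocyte markers summed to 959.6 TPM, against 36.2 to 276 in the other 23, and the part of this in its values was not tested.

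Ccn2 encodes a secreted matrix-associated factor that accompanies scarring. It ran from 263 to 728 CPM in Ctrl (median 428), from 202 to 1159 in CoCM (median 421), from 181 to 562 in ipABCB5 (median 259) and from 246 to 743 CPM in ivABCB5 (median 487). All ipABCB5 kidneys but animal 29 lay below 300 CPM, and 3 of them below the lowest control. The log2 fold change against Ctrl was −0.64 ± 0.37 in ipABCB5 (adjusted p = 0.978, edgeR), 0.11 ± 0.36 in CoCM and 0.10 ± 0.36 in ivABCB5. Leaving out the 4 kidneys gave −0.58, 0.21 and 0.26 in that order. In CoCM it was −0.14 on the TPM scale and −0.32 without animal 40, and in ivABCB5 it turned to between −0.02 and −0.05 without Ctrl animal 12 or ivABCB5 animals 28 or 43.

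Against ivABCB5, Ccn2 in ipABCB5 had a log2 fold change of −0.74 ± 0.37, with an unadjusted p of 0.0544 and an adjusted p of 0.9999 (edgeR). Its exact permutation p was 0.0931 for ipABCB5 against Ctrl and 0.0628 for ipABCB5 against ivABCB5. Without ipABCB5 animal 29, the highest of its group, these were 0.0152 and 0.0195. The first was also 0.0498 without Ctrl animal 12, and the second 0.0498 and 0.0238 without ivABCB5 animals 33 and 37. Leaving out each of the 12 animals in turn, the first was between 0.0152 and 0.186 and under 0.05 in 2 of 12. The second was between 0.0195 and 0.126 and under 0.05 in 3 of 12. Without the 4 kidneys that stood apart they were 0.147 and 0.0714. All of these are unadjusted. The estimate was below 0 in both comparisons whichever animal was left out.

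The 4 kidneys that stood apart did not hold the 10 genes at one level. Tagln was at 151 to 205 CPM in them and at 239.6 to 1011 in the other 20, with no overlap. Pdgfb was at 29.4 to 37.2 against 53.9 to 125 CPM, again with no overlap. Of all genes tested, 14.2% had all 4 below the other 20, so 2 of 10 is near this background.

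Pdgfra was at 31.7, 34.9, 62.3 and 71.0 CPM in CoCM 39, ipABCB5 38, ivABCB5 36 and ivABCB5 37, against 65.9 to 182 in the other 20, so 3 of the 4 were below. Pdgfrb was at 72.7, 94.96, 116 and 125 against 121 to 303 CPM, and Des at 80.1, 66.1, 66.3 and 54.3 against 70.9 to 192 CPM, also with 3 of the 4 below. In contrast, Acta2 at 116 to 194 CPM lay inside the range of the other 20, 98.2 to 373. Myh11 at 87.1 to 159.8 (others 67.5 to 254), Cnn1 at 4.93 to 12.4 (others 4.27 to 34.9) and Ccn2 at 236 to 522 CPM (others 181 to 1159) did so too. Thy1 was highest of all 24 in ipABCB5 animal 38, at 45.2 CPM. None of the 10 had all 4 above the others, where 10% of all genes did. On the TPM scale all 4 were below the other 20 for Pdgfra and Pdgfrb too, which gives 4 of the 10 genes, where 22.8% of all genes were so placed on that scale. What set these kidneys apart was not tested.

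**Figure D3:**
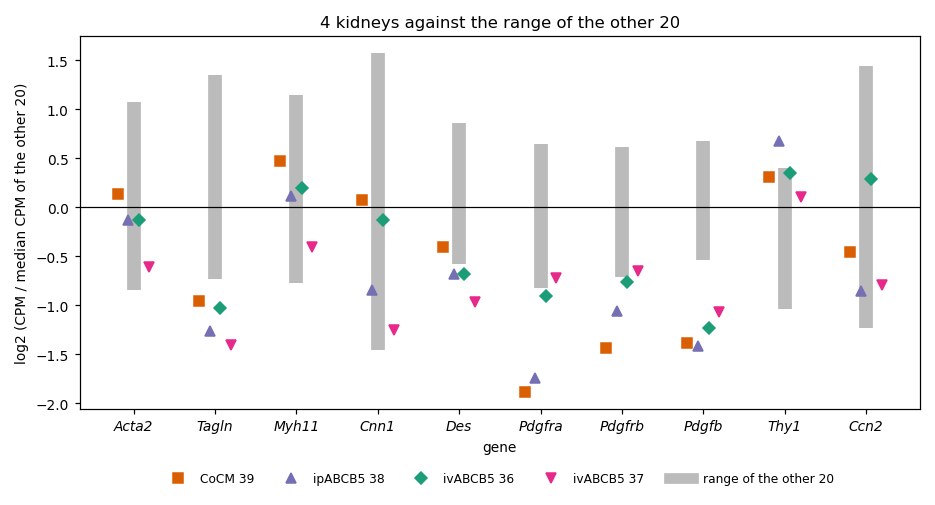
Log2 of CPM over the median of the other 20 kidneys (vertical axis) for each gene (horizontal axis) in the 4 kidneys that stood apart (coloured symbols), with grey bars for the range of the other 20. All 4 symbols lie below the bar for Tagln and Pdgfb, and within it for Acta2, Myh11, Cnn1 and Ccn2.

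Among the other 20 kidneys the 10 genes formed sets that varied together, given here as a description by Pearson's r of log2 CPM (n = 20 kidneys, which share the same libraries and scaling). Acta2 and Tagln had r = 0.88, Acta2 and Des 0.88, Acta2 and Cnn1 0.79, and Myh11 and Cnn1 0.81. Tagln and Myh11 were the loosest pair of contractile genes, at 0.36. Pdgfra and Pdgfrb had r = 0.88. Across these sets Cnn1 had −0.02 with Pdgfra and with Pdgfrb, and Acta2 had 0.32 with Pdgfra. Tagln crossed them, with 0.48 to Pdgfra and 0.55 to Pdgfrb, near its 0.50 with Cnn1 and above its 0.36 with Myh11.

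Pdgfb followed neither set closely in the 20, with r = 0.41 to each receptor and −0.03 to Acta2. With all 24 kidneys its r rose to 0.80 with Pdgfra and 0.79 with Pdgfrb, so those values rest on the 4 kidneys. Tagln and Pdgfb likewise went from 0.06 to 0.62. Ccn2 had r = 0.64 with Tagln and 0.63 with Pdgfrb in the 20, and −0.22 with Myh11.

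**Figure D4:**
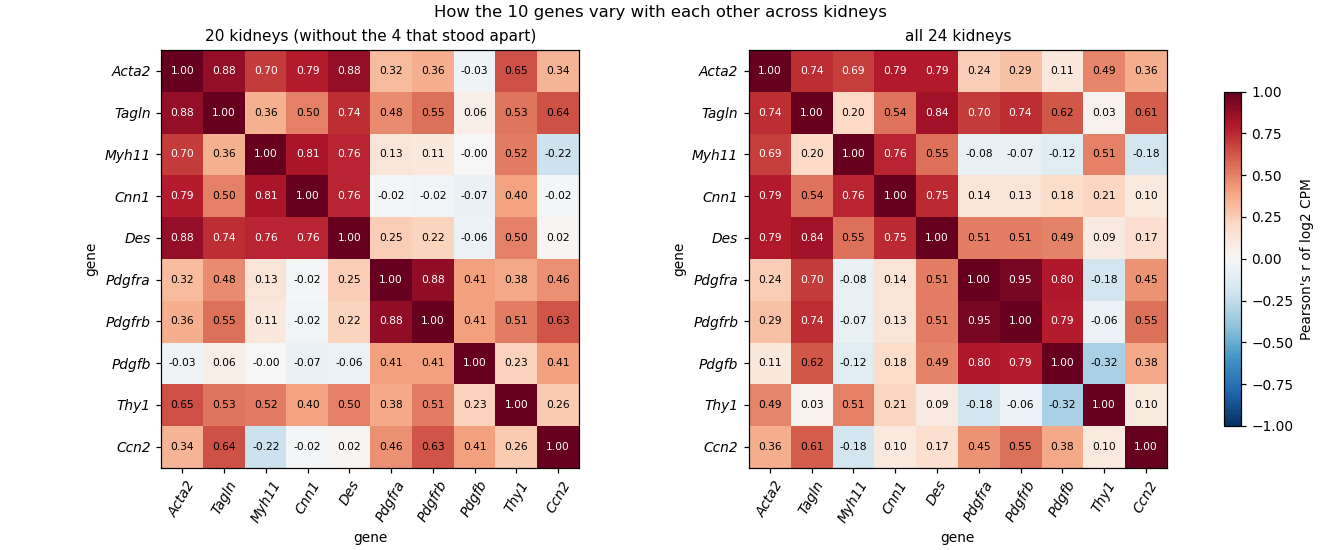
Pearson's r of log2 CPM for each pair of the 10 genes (both axes), in the 20 kidneys without those that stood apart (left) and in all 24 (right), coloured from −1 to 1. Acta2, Tagln, Myh11, Cnn1 and Des form a block on the left, Pdgfra and Pdgfrb another at 0.88, and Pdgfb joins the receptors at 0.80 and 0.79 on the right.

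Genes most like each of the 10 were sought among 11643 others by r over all 24 kidneys, and r over the 20 follows. For Acta2 they were Myl9, a myosin light chain (0.84 and 0.93), and Mustn1 (0.78 and 0.78). For Tagln they were Tpm2, a muscle tropomyosin (0.98 and 0.97), and Tgfb1i1 (0.97 and 0.96). For Des they were Myl9 (0.90 and 0.90) and Tpm2 (0.86 and 0.78), for Myh11 Abcg4 (0.88 and 0.90) and Lmod1, leiomodin of smooth muscle (0.87 and 0.86), and for Cnn1 Ccn3 (0.84 and 0.83) and Pln, phospholamban (0.82 and 0.80).

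Pdgfra was most like Slco2b1 (0.96 and 0.94) and Plbd1 (0.96 and 0.90), and Pdgfrb most like Pear1 (0.97 and 0.94) and Mxra8 (0.96 and 0.92). For Pdgfb they were Actn1, an actinin (0.97 and 0.86), and Col4a1, a basement membrane collagen (0.97 and 0.85). Thy1 was most like Emcn, the endothelial endomucin (0.91 and 0.89), and Plpp3 (0.87 and 0.84), and Ccn2 most like Plk3 (0.91 and 0.93) and Rem1 (0.85 and 0.88).

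The wider contractile apparatus was described by 21 genes, the 5 above among them. After adjustment 0 of 21 were called in any of the 4 comparisons by edgeR, DESeq2 or limma. At an unadjusted p under 0.05 (edgeR) there were 1, 0 and 1 in CoCM, ipABCB5 and ivABCB5 against Ctrl (all genes 11.9%, 1.77% and 5.78%) and 2 between the routes (2.14%), the last being Myh11 and Cnn1. The median log2 fold change against Ctrl was −0.12 in CoCM, −0.11 in ipABCB5 and −0.35 in ivABCB5, and −0.06, −0.04 and −0.16 without the 4 kidneys. In ivABCB5 20 of 21 estimates were below 0 with all kidneys and also without the 4, where the medians over all genes were 0.01 and −0.004. Genes of this list varied together (Tagln and Tpm2 r = 0.97 in the 20 kidneys), so their signs are not independent. Ctrl animal 1 was the highest control for Acta2, Tagln, Myh11, Cnn1 and Des. Mylk, the kinase that activates smooth muscle myosin, had −0.40 ± 0.15 in CoCM and −0.34 ± 0.15 in ivABCB5, with adjusted p-values of 0.353 and 0.673 (edgeR). Kcnmb1, a potassium channel subunit of smooth muscle, had −0.51 ± 0.26 and Sncg 0.27 ± 0.20 in CoCM (adjusted p = 0.427 and 0.540, edgeR).

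Of the regulators of these genes, 7 of 9 were matched (Mrtfa and Mrtfb were not), and 0 were called (edgeR, DESeq2 and limma; 0 also at an unadjusted p under 0.05 in edgeR). Srf, serum response factor itself, had log2 fold changes of 0.10 ± 0.16, −0.14 ± 0.16 and 0.05 ± 0.16 in CoCM, ipABCB5 and ivABCB5 against Ctrl. Fhl2, a cofactor, had −0.25 ± 0.37, −0.52 ± 0.37 and −0.42 ± 0.37. Foxo4 had values from −0.03 to 0.15.

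The list of mural cell markers held 18 genes, Pdgfrb among them, of which 17 were tested and 0 were called (edgeR, DESeq2 and limma). Rgs5, a signalling brake and pericyte marker, was at 20.5 ± 8.36 CPM in CoCM and 30.1 ± 5.50 in Ctrl, a log2 fold change of −0.56 ± 0.22 (adjusted p = 0.374, edgeR). Notch3, the receptor that maintains mural cells, was at 33.8 ± 6.63 against 44.5 ± 7.29 CPM (−0.40 ± 0.15, adjusted p = 0.353, edgeR). Ndufa4l2 had 0.48 ± 0.18 in ipABCB5 (adjusted p = 0.978, edgeR). The unadjusted p was under 0.05 for 5 of 17 in CoCM, all lower (all genes lower 5.96%), for 2 in ipABCB5 (both higher, all genes higher 1.26%), for 0 in ivABCB5 (all genes 5.78%) and for 1 between the routes (all genes 2.14%). The median of the list was −0.27 in CoCM, −0.09 in ipABCB5 and −0.10 in ivABCB5. It was −0.27, −0.02 and 0.01 without the 4 kidneys. Of 8 mesangial and juxtaglomerular markers 0 were called (edgeR, 0 also at an unadjusted p under 0.05, and 0 by DESeq2), with medians of −0.10, −0.04 and −0.10, and −0.24, −0.04 and −0.15 without the 4 kidneys. Itga8 had −0.47 ± 0.27, Serpine2 −0.62 ± 0.34 and Hopx −0.02 ± 0.16 in CoCM.

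Fibroblast and matrix genes had medians against Ctrl of −0.59 in CoCM, −0.42 in ipABCB5 and −0.58 in ivABCB5. Of 23 tested, Pdgfra among them, 22, 22 and 23 estimates were below 0 and 0 were called after adjustment (edgeR, DESeq2 and limma). At an unadjusted p under 0.05 there were 2, 0 and 0 (edgeR; all genes 11.9%, 1.77% and 5.78%). Without the 4 kidneys the medians were −0.38, −0.22 and −0.18, with 22, 20 and 23 below 0. The 23 genes were measured in the same kidneys, so their signs are not independent. Cd34, a surface marker of fibroblast progenitors and endothelium, was at 18.4 ± 5.83 CPM in CoCM and 32.01 ± 7.25 in Ctrl (−0.80 ± 0.24, adjusted p = 0.257, edgeR). Lox, which crosslinks collagen, had −1.23 ± 0.58 and Col5a1 −0.82 ± 0.42 in CoCM (adjusted p = 0.411 and 0.438, edgeR). All 4 kidneys that stood apart were below the other 20 in 16 of 23 genes of this list, in 7 of 21 contractile genes and in 2 of 17 mural cell markers, against 14.2% of all genes tested.

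In the remaining lists, which also hold the PDGF genes above or Ccn2, 0 genes were called in any comparison (edgeR, DESeq2 and limma), and at most 1 gene per list and comparison had an unadjusted p under 0.05 (edgeR; all genes 11.9%, 1.77% and 5.78% in CoCM, ipABCB5 and ivABCB5 against Ctrl and 2.14% between the routes). Of 7 PDGF ligands and receptors, Pdgfrl had 0.63 ± 0.22 in CoCM (adjusted p = 0.321, edgeR), Pdgfd −0.49 ± 0.30 in CoCM and Pdgfc 0.32 ± 0.17 in ivABCB5. Pdgfc was at 22.3 to 27.4 CPM in the 4 kidneys that stood apart, against 11.6 to 21.2 in the other 20. The 6 CCN genes included Ccn6, with 1.25 ± 0.44 in CoCM (adjusted p = 0.338, edgeR), Ccn5 with −1.02 ± 0.50 in ivABCB5 and Ccn3 with 0.78 ± 0.33 between ipABCB5 and ivABCB5. Ccn5 was at 0.190 to 0.455 CPM in the 4 kidneys that stood apart, against 0.763 to 4.44 in the other 20. The 20 YAP and TEAD targets had medians of −0.26, −0.24 and −0.15 in CoCM, ipABCB5 and ivABCB5, and −0.21, −0.17 and −0.01 without the 4 kidneys. Among them Asap1 had −0.60 ± 0.21 in CoCM, F3 −0.44 ± 0.18 between ipABCB5 and ivABCB5, and Fjx1 0.87 ± 0.39 in ivABCB5 (adjusted p = 0.335, 0.9999 and 0.673, edgeR). Fjx1 was at 75.3 to 94.4 CPM in the 4 kidneys that stood apart, ivABCB5 animals 36 and 37 among them. The other 20 had 18.8 to 56.4 CPM. The 14 genes induced by TGF-beta had medians of −0.27, −0.35 and −0.24, and −0.16, −0.16 and −0.07 without the 4 kidneys. In 6 of the 14 all 4 of those kidneys lay below the other 20, against 14.2% of all genes tested. Of these 6, Col1a1 and Fn1 also stand in the fibroblast and matrix list, and Tgfb2 among the YAP and TEAD targets. Ltbp1 had −0.32 ± 0.15 in CoCM, Tgfbi 0.64 ± 0.31 and Smad7 0.14 ± 0.081 in ivABCB5 (adjusted p = 0.399, 0.673 and 0.673, edgeR). The Tgfbi estimate includes ivABCB5 animals 36 and 37, which stood apart, at 139 and 177 CPM. The other 20 kidneys had 32.4 to 89.7 CPM.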

How the data were processed

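RNA of 24 left kidneys was sequenced on the BGISEQ-500 platform. Per sample the authors deposited estimated counts, which were not normalized, and TPM values, which the authors scaled to transcript length and library total. The submitters' processing notes name Trim Galore 0.6.4, kallisto 0.4.6 and build rn6, while DESeq2 and an annotation package for human hg19 stand in the methods of the study. Symbols came from the RefSeq table of GRCr8, as did promoters, so no gene coordinates of rn6 are given.

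Estimated counts were rounded, filtered with filterByExpr by group (12778 of 17334 genes kept), scaled by TMM and fitted in edgeR 4.0.16 (R 4.3.3) with a mean per group over all 24 samples. Quasi-likelihood F-tests were adjusted by Benjamini-Hochberg over all genes tested at 0.05. The standard error was the size of the log2 fold change divided by the square root of F. CPM are TMM-scaled. Log2 CPM used a prior count of 2. Single genes were also compared by a two-sided exact permutation test (smallest possible p 0.00216), unadjusted. Alternatives were median-ratio size factors, no filter, at least 10 counts in every sample, only the groups compared, DESeq2 1.42.0, limma 3.58.1 on log2(TPM + 1) (a TPM fold change is on that scale), each animal left out and, chosen after seeing the data, leaving out the 4 kidneys that stood apart and leaving out animals from the exact test.

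Groups came from the sample labels, with the animal number as replicate. The genes and lists were chosen with earlier results of these data known. The 10 genes were always named, with the 2 genes most like each and, per list, up to 3 other genes with the smallest p over the 4 groups. Marker lists covered endothelial, tubular, podocyte, macrophage, T cell, adipocyte and skeletal muscle genes. Total counts of 9304630 to 14125457 put 3 counts at 0.322 CPM in the smallest library. Reads carry no molecular identifiers, so this covers counting error only. The fits were tested on simulated counts.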

Additional observations from a re-analysis of the deposited data

Results flagged for a closer look

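In 7 of 40 sets of 6 kidneys (10 genes in 4 groups) 1 kidney lay far from the others by Dixon's test on CPM. About 2 would be expected if the sets were independent and normally distributed. They share kidneys and hold genes that vary together, so 7 against 2 does not measure an excess over chance. Acta2 was at 354.5 CPM in CoCM animal 40, against 98.2 to 194 in the other 5, and at 373.1 CPM in ipABCB5 animal 41, against 113 to 200.1. Myh11 was at 253.7 CPM in ipABCB5 animal 41, against 107 to 155. In Ctrl animal 1 Des was at 170.1 CPM, against 70.9 to 108, and Cnn1 at 26.94 CPM, against 6.48 to 13.4. Ccn2 was at 1159 CPM in CoCM animal 40, against 202 to 511, and at 561.9 CPM in ipABCB5 animal 29, against 181 to 296. All 7 were the highest of their group, and 4 animals held them.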

How the results depend on the processing

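None of the 10 genes was called under any alternative, and with all animals or without the 4 kidneys that stood apart, 393 values stayed as they were in sign and call, 8 counts moved and 8 estimates changed sign. Over all genes, edgeR called 1 in CoCM against Ctrl, 0 with only the groups compared, 0 by limma on TPM, 0 without those 4 kidneys and 81 by DESeq2. DESeq2 called 1 in ivABCB5 against Ctrl, 1 between the routes and 10 over the 4 groups, where edgeR called 0. Single genes under 0.05 by the exact test went from 2 to 1 without the 4 kidneys. By limma on log2(TPM + 1) the log2 fold change in CoCM was −0.14 for Acta2, −0.17 for Tagln and −0.14 for Ccn2, and in ipABCB5 −0.042 for Acta2, while the median over all genes moved to −0.10 at most. Without the 4 kidneys Pdgfrb in ivABCB5 was 0.031, and between the routes Tagln was −0.012, Pdgfb −0.017 and Thy1 −0.011. The cause of these changes was not tested.

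With 1 animal left out, the count of genes called in CoCM was 0 to 31. It was 31 without Ctrl animal 23, 2 without ivABCB5 animal 37, and 0 without Ctrl animals 12, 18, 22 or 24 or CoCM animals 26, 27 or 39. Over the 4 groups it was 0 to 1 (1 without Ctrl animal 23). In CoCM the log2 fold change went from −0.25 to 0.21 for Acta2, −0.32 to 0.29 for Tagln, −0.20 to 0.12 for Des, −0.47 to 0.016 for Cnn1 and −0.32 to 0.28 for Ccn2. In ipABCB5 it went from −0.23 to 0.25 for Acta2, −0.087 to 0.30 for Des, −0.19 to 0.023 for Thy1 and −0.20 to 0.56 for Cnn1, and in ivABCB5 from −0.047 to 0.26 for Ccn2. Between the routes it went from −0.026 to 0.35 for Tagln, −0.26 to 0.090 for Pdgfra, −0.11 to 0.28 for Pdgfb and −0.10 to 0.11 for Thy1. No paired analysis was possible because animal numbers never recur between groups. Cnn1, with 53 to 385 counts per library, had the least depth.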
